A study of Homo sapiens with 12 samples.

Results

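The genes described here are 6 transcripts that lie at the output end of the RAS–RAF–MEK–ERK pathway: the ETS transcription factors ETV1, ETV4 and ETV5, and the dual-specificity phosphatases DUSP4, DUSP5 and DUSP6. They were chosen by name as widely used markers of ERK activity, 6 of the 56638 gene symbols counted. These genes and the gene lists read beside them were chosen with earlier results of these data known. Their RNA was measured in 501Mel, an established human melanoma cell line that carries the BRAF-V600E mutation, so every value comes from 1 line. The cells were exposed for 48 h to the solvent (DMSO, the vehicle), to 1 µM of the BRAF inhibitor Vemurafenib (Vem), to 5 µM Resveratrol (RSV), to 10 nM TCDD, to RSV+Vem or to RSV+TCDD at those doses. For RSV+TCDD the treatment protocol gives 10 nM TCDD, but the label of its 2 samples reads 1 nM. Vem and TCDD were compared because the study treats both as ligands of the aryl hydrocarbon receptor (AhR), TCDD being its classical agonist, and RSV was added as an antagonist of AhR. Each of the 6 groups had 2 libraries, and nothing states that these were separate cultures, so the p-values measure only the spread between the libraries, which may be technical.

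In BRAF-mutant melanoma the mutant kinase keeps MEK and ERK switched on without a signal from outside. Active ERK relieves the repressor CIC from the genes of the PEA3 subfamily, ETV1, ETV4 and ETV5, whose proteins bind DNA at a GGAA core and drive growth and invasion genes. ERK also induces its own brakes: DUSP6 removes the activating phosphates from ERK in the cytoplasm, DUSP5 does so in the nucleus, and DUSP4 is a nuclear phosphatase that acts on ERK and on the stress kinases. These transcripts are commonly used as readouts of ERK activity. The values below are RNA levels, and neither ERK phosphorylation nor protein was measured in these libraries.

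The libraries held between 8378655 and 25076925 counts on genes, the lowest being RSV+Vem 2, and spiked-in control sequences held 0.0310% to 0.0936% of all counts. RNA integrity numbers were 8.7 and 8.6 in the RSV+Vem libraries and between 9.1 and 9.7 in the other 10. The 7 melanocyte lineage markers summed to between 9410 and 34832 CPM, counts scaled to library size, whereas the 2 keratinocyte markers reached at most 0.112, the 3 immune markers at most 0.384 and the 2 endothelial markers at most 1.38, with PECAM1 at 0 throughout; the 4 fibroblast markers summed to between 6.22 and 39.2. Levels below are CPM scaled with the trimmed mean of M-values (TMM), as the mean ± SD of both libraries. Changes are log2 fold changes from edgeR's quasi-likelihood model, and the threshold for a call was an adjusted p of 0.05 over the 16080 genes that passed the filter on low counts, which included all 6 genes.

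Promoter windows, from 250 bases before to 50 bases after a RefSeq start site on GRCh38.p14, were at hand for ETV1 and DUSP6, and they are shown because both genes fell with Vem and were higher with RSV+Vem than with Vem alone. Capitals mark matches on either strand to the ETS core CCGGAA, the CIC octamers TGAATGAA and TGAATGGA, the AP-1 motif TGANTCA, the CRE motif TGACGTCA and the core GCGTG of the AhR response element, which reads CACGC on the other strand. Of the 6 windows of ETV1, the one at chr7:13991376-13991675 (minus strand) was chosen after the matches were seen.
ETV1: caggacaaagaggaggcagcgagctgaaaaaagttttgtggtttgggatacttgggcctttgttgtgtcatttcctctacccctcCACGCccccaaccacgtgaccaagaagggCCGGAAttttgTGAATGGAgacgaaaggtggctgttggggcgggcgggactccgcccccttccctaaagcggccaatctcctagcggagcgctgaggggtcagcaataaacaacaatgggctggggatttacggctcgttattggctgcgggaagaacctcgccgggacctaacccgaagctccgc
DUSP6, at chr12:89352452-89352751 (minus strand): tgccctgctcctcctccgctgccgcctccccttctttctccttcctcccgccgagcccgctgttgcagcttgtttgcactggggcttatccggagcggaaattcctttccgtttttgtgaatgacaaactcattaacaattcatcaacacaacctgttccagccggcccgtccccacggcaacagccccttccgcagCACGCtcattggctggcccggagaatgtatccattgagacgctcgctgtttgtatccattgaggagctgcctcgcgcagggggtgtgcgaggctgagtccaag
The ETV1 window held an ETS core that begins 136 bases before the start site, followed by a CIC octamer that begins 125 bases before it, and an AhR core at 165 bases. Of the marked motifs, the DUSP6 window held only an AhR core, at 53 bases. The shorter GGAA core was not searched for, and it occurs unmarked in this window. Across 35116 promoter windows of this length, 17.2% held CCGGAA, 1.03% held TGAATGGA, 1.65% held TGAATGAA, 7.71% held TGANTCA, 1.85% held TGACGTCA and 36.5% held GCGTG. Such a match is a string of letters and no evidence of binding.

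On GRCh37, ETV1 lies on chromosome 7 at chr7:13930854-14031050, ETV4 on chromosome 17 at chr17:41605212-41656988, ETV5 on chromosome 3 at chr3:185764103-185828107, DUSP4 on chromosome 8 at chr8:29190581-29208201 and DUSP6 on chromosome 12 at chr12:89741012-89746278, all on the minus strand. DUSP5 lies on the plus strand of chromosome 10 at chr10:112257665-112271291. Their counts are sums over whole genes, so isoforms were not told apart. Exons of ETV4 share 68 bases with DHX8 on the opposite strand, those of ETV5 share 164 bases with DGKG on the same strand, and those of DUSP6 share 1105 bases with an antisense gene that is not in the count table, so reads from these stretches are uncertain. The pseudogenes of DUSP5 held few counts, at most 9 in any library for DUSP5P1 and 0 for DUSP5P2.

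In vehicle-treated cells the 6 transcripts were unequal in abundance. Per kilobase of exon, ETV5 was the most abundant of the 28 ETS family genes, at 69.7 ± 2.17 CPM per kb, with ETS1 at 68.4 ± 9.56 within the spread, while ETV4 ranked 3 at 32.3 ± 0.495 and ETV1 ranked 8 at 8.81 ± 0.573. DUSP4 and DUSP6 were the leading members of the 10 phosphatases of this class, at 28.3 ± 4.02 and 27.1 ± 2.24 CPM per kb, a difference smaller than their spread. DUSP5 ranked 7 of the 10 at 4.40 ± 1.62 CPM per kb. ETV5 therefore made up 62.9% of the summed PEA3 level per kilobase in vehicle cells.

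Comparing Vem with vehicle asked what the BRAF inhibitor did to these transcripts. The comparison cannot tell the action of Vem on BRAF apart from its action as an AhR ligand. All 6 were lower with Vem, in a comparison that called 52.4% of all tested genes, with 27% of all tested genes lower and 25.4% higher. ETV4 and DUSP6 nearly disappeared, ETV1, ETV5 and DUSP4 fell to between 6.17% and 10.2% of vehicle, and DUSP5 fell least. Since RNA was taken from whole cultures, less transcript per cell and fewer cells that hold the transcript cannot be told apart.

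Among the ETS factors, ETV4 stood at 115 and 112 CPM in the vehicle libraries and at 1.11 and 0.922 CPM with Vem, the latter from 16 and 12 counts. Its level with Vem was 0.895% of vehicle, a change of -6.79 on the log2 scale (adjusted p = 2.49e-13, standard error 0.172). By the size of its decrease ETV4 ranked 5 of the 16080 genes. ETV5, the most abundant of the trio, fell from 411 and 393 CPM to 28.1 and 21.5 CPM, which is 6.17% of its vehicle level (log2 change -4.02, standard error 0.112, adjusted p = 5.97e-13). ETV1 fell from 88.4 and 80.6 CPM to 8.55 and 6.84 CPM, or 9.11% of its vehicle level (log2 change -3.45, standard error 0.143, adjusted p = 3.67e-11). In each of these 3 genes the Vem libraries lay far below the vehicle libraries, with gaps many times wider than the distance between replicates.

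Among the phosphatases, DUSP6, the cytoplasmic brake on ERK, fell from 111 and 98.5 CPM to 1.81 and 0.692 CPM, from 26 and 9 counts in the Vem libraries. It was left at 1.20% of vehicle, a change of -6.35 on the log2 scale (adjusted p = 1.57e-11, standard error 0.230), and ranked 13 of 16080 by decrease. DUSP4 was at 227 and 185 CPM with vehicle and at 21.1 and 20.7 CPM with Vem, 10.2% of the former (log2 change -3.30, standard error 0.121, adjusted p = 1.57e-11). The nuclear ERK phosphatase DUSP5 was scarce from the start, at 14.1 and 8.25 CPM, and stood at 4.31 and 4.76 CPM with Vem (log2 fold change -1.29, standard error 0.301, adjusted p = 0.00187). Its groups did not overlap, but its vehicle libraries differed more in proportion than those of the other 5 genes. Scaling to the spike-ins instead of TMM moved the median change of all genes with Vem to -0.68 and the calls from 4082 higher and 4341 lower to 196 higher and 3574 lower; all 6 genes were still called lower.

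**Figure D1:**
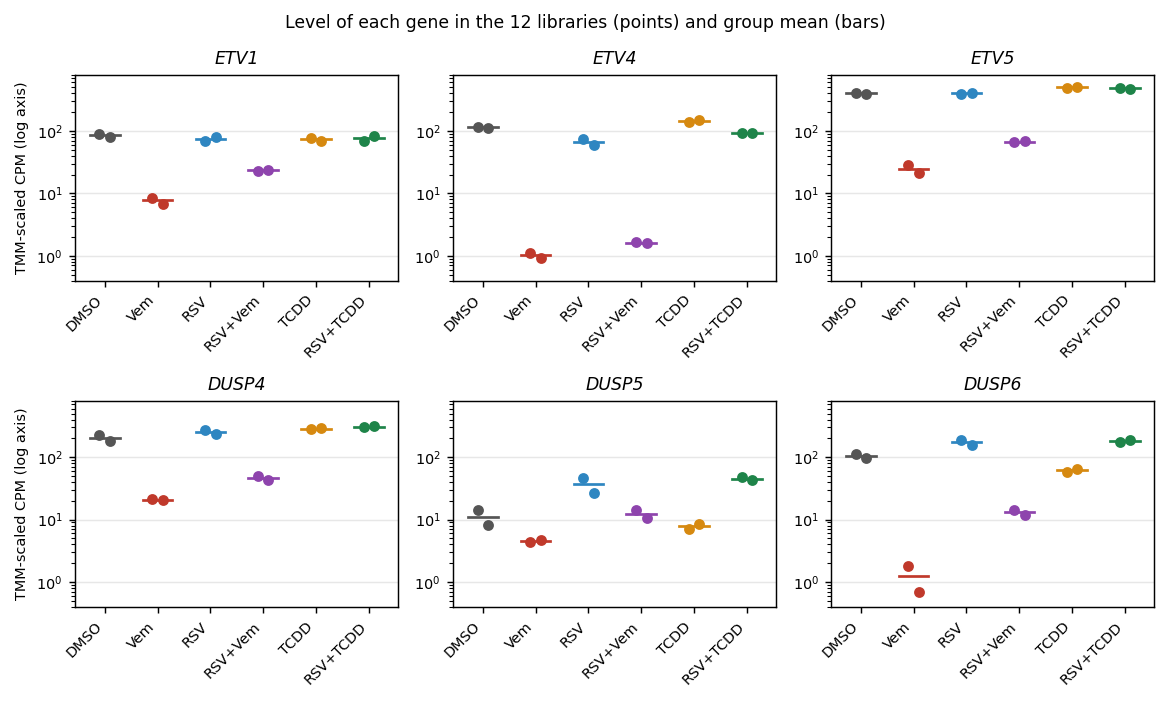
TMM-scaled CPM (log axis) of the 6 genes in the 12 libraries, by treatment group on the horizontal axis; points are libraries and bars are group means of 2 libraries. The Vem points lie lowest in every panel, the RSV+Vem points lie above them, and DUSP5 is highest in the RSV and RSV+TCDD groups.

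Other members of both gene families were read beside the 25.4% of all tested genes higher and 27% lower with Vem. Of 25 other ETS family genes, 13 passed the filter on low counts, and 3 of them rose and 4 fell with Vem, with a median log2 fold change of -0.18 beside -0.030 for all genes tested (0 higher, 4 lower and -0.83 under spike-in scaling). The named ones were SPDEF, an epithelial ETS factor at low counts (1.94), ELF1 (0.85), ELK3 (-0.97) and ELK4 (-0.76), a partner of serum response factor. Of 7 other phosphatases of the class, 6 passed, and DUSP8 (1.44), DUSP9 (0.82) and DUSP16 (0.82) rose while DUSP1 fell (-1.84), with a median of 0.53, of which only the fall of DUSP1 was called under spike-in scaling, where the median was -0.13. DUSP16, which acts mainly on the stress kinases JNK and p38, thus ranked 1 of 10 with Vem at 13.2 ± 1.30 CPM per kb, whereas DUSP4 ranked 6, DUSP5 ranked 8 and DUSP6 ranked 9. Among ETS genes with Vem, ETS1 ranked 1 at 78.6 ± 0.826 CPM per kb and ETV5, ETV1 and ETV4 ranked 7, 14 and 17.

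**Figure D2:**
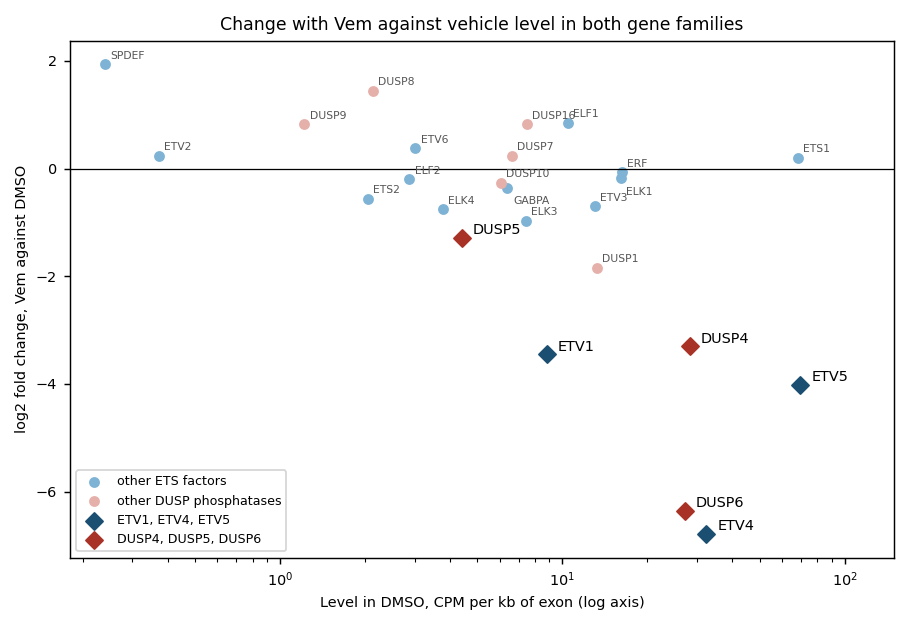
log2 fold change with Vem against DMSO (vertical axis) and level in DMSO in CPM per kb of exon (horizontal log axis) for the tested ETS factors and DUSP phosphatases; diamonds are the 6 genes described and circles the other members of both families. ETV4 and DUSP6 lie lowest, at -6.79 and -6.35, and no other family member lies below DUSP1 at -1.84.

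The 14 further transcripts widely used as ERK output included 13 that passed the filter, of which 12 fell and 0 rose with Vem under either scaling, with a median of -2.63 (-3.29 with the spike-ins). They included the feedback inhibitors SPRY4 (-5.66, standard error 0.225) and SPRY2 (-4.08, standard error 0.238), the early response gene IER3 (-3.83, standard error 0.223) and EGR1, an immediate early transcription factor (-3.64, standard error 0.442). The 16 genes of the kinase cascade itself had a median of 0.24, with 6 higher and 3 lower beside 25.4% and 27% of all tested genes, among them MKNK2 (0.69) and RPS6KA2 (0.60) higher and RPS6KA3 (-1.03) and MAP2K1, which encodes MEK1 (-0.60), lower; with the spike-ins 0 of these were called higher and 3 lower, the median was -0.41 and RPS6KA2 turned to -0.055. Of 5 genes for the repressor of PEA3 genes and its partners and for the ligase that degrades PEA3 proteins, CIC (0.69), DET1 (0.59) and RFWD2 (0.25) rose and 0 fell, whereas 0 were called with the spike-ins, where DET1 turned to -0.064 and RFWD2 to -0.40.

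RSV alone was compared with vehicle to see its own effect before it was combined. It split the 6 genes: DUSP5, DUSP6 and DUSP4 were higher, ETV4 was lower, and ETV1 and ETV5 were not called, in a comparison that called 40.9% of tested genes (20.5% higher and 20.4% lower). DUSP5 rose most, from 14.1 and 8.25 CPM to 47.3 and 26.5 CPM, an increase of 1.73 on the log2 scale (adjusted p = 5.20e-05, standard error 0.244). The 2 RSV libraries differed widely for this gene, and both lay above both vehicle libraries. DUSP6 was at 190.5 and 155 CPM with RSV, against 111 and 98.5 in the vehicle libraries (0.72 higher on the log2 scale, adjusted p = 0.000754, standard error 0.141). ETV4 was at 73.4 and 60.1 CPM, against 115 and 112 (log2 fold change -0.77, standard error 0.104, adjusted p = 3.71e-05). ETV4 and the 3 phosphatases described here thus moved in opposite directions with RSV. Of the 6 other phosphatases of the class that were tested, 1 was called higher and 2 lower, DUSP9 (-1.15, adjusted p = 0.00917) being among the latter. DUSP4, at 268 and 236 CPM, was 0.29 higher on the log2 scale (adjusted p = 0.0343), a call that was lost when any of DMSO 2, RSV 1, Vem 1, Vem 2, TCDD 1 or TCDD 2 was left out (0.16 to 0.29, adjusted p = 0.0505 to 0.303) or when the model held only the 4 libraries compared (adjusted p = 0.0902). ETV1 differed from vehicle by -0.19 (95% interval -0.44 to 0.057) and ETV5 by 0.0019 (-0.20 to 0.20). Under spike-in scaling, which called 261 of all genes higher and 113 lower, only DUSP5 of the 6 was called, and the ETV5 value turned to -0.17.

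RSV+Vem was compared with Vem to see whether RSV changed what the inhibitor did. Of the 6 genes, 5 were higher with RSV+Vem than with Vem alone, in a comparison that called 37.9% of tested genes, with 19.2% of all tested genes higher. DUSP6 differed most: it stood at 14.5 and 11.9 CPM with RSV+Vem, against 1.81 and 0.692 CPM with Vem (log2 fold change 3.39, standard error 0.268, adjusted p = 1.78e-07). ETV1 was at 23.1 and 23.7 CPM against 8.55 and 6.84 (log2 fold change 1.60, standard error 0.151, adjusted p = 8.20e-07). Both libraries of RSV+Vem lay above both of Vem for each of these genes. ETV5 was at 66.2 and 67.9 CPM against 28.1 and 21.5 (1.43, standard error 0.109, adjusted p = 1.30e-07), DUSP4 at 50.1 and 43.2 against 21.1 and 20.7 (1.17, standard error 0.122, adjusted p = 2.19e-06) and DUSP5 at 14.2 and 10.7 against 4.31 and 4.76 (1.49, standard error 0.308, adjusted p = 0.00121). ETV4 stayed scarce, at 1.65 and 1.57 CPM from 31 and 14 counts, and its difference of 0.66 (95% interval 0.043 to 1.29) was not called (adjusted p = 0.109). With spike-in scaling, which called 337 genes higher and 54 lower in place of 3089 and 3002, only ETV1 and DUSP6 of the 6 were called, all 6 values remaining above 0.

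Of the 5 genes higher than with Vem alone, ETV1, ETV5, DUSP4 and DUSP6 were still lower than in vehicle cells. So was ETV4, which was not called higher than with Vem. Against vehicle, in a comparison that called 48.9% of tested genes (24.8% lower), ETV1 stood at 27.7% of its level, ETV5 at 16.7%, DUSP4 at 22.7%, DUSP6 at 12.6% and ETV4 at 1.42%, and all 5 were called lower (log2 fold changes -1.85, -2.59, -2.13, -2.96 and -6.12). DUSP5 was the exception, at 12.4 ± 2.49 CPM against 11.2 ± 4.11 CPM with vehicle (log2 fold change 0.20, 95% interval -0.36 to 0.76, adjusted p = 0.554), and its value turned to -0.45 with the spike-ins and again missed the threshold. Since DUSP5 was raised by RSV alone, its level in RSV+Vem was also read against RSV: it was lower there (log2 fold change -1.53, standard error 0.252, adjusted p = 0.000404). All 6 genes were lower in RSV+Vem than in RSV, where 24.4% of tested genes were called (13.1% lower), with log2 fold changes of -1.66 for ETV1, -5.35 for ETV4, -2.59 for ETV5, -2.43 for DUSP4 and -3.69 for DUSP6.

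**Figure D3:**
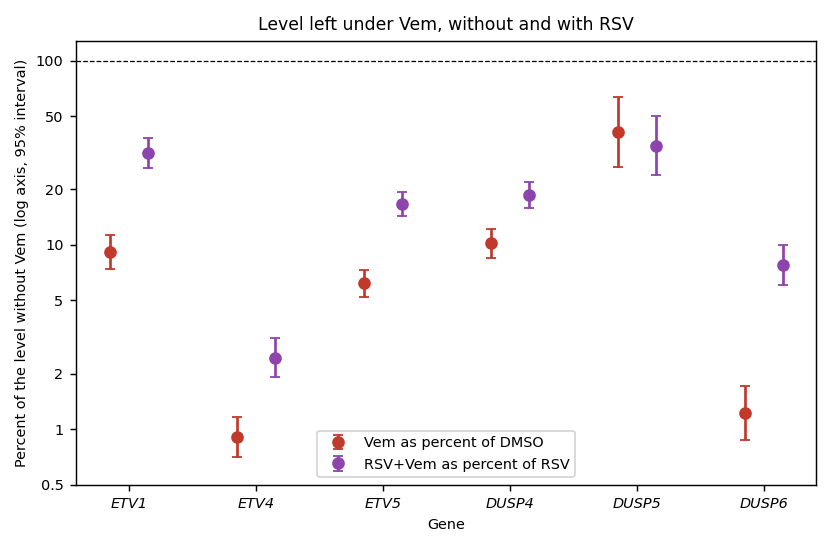
Level under Vem as a percent of DMSO (red) and level under RSV+Vem as a percent of RSV (purple) for each gene, from the fitted fold changes with 95% intervals, on a log axis; the dashed line is 100%. The purple value is above the red one in every gene but DUSP5, and the gap is widest for DUSP6.

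The interaction of RSV and Vem is the effect of Vem in the presence of RSV minus its effect without RSV, and these effects share no library. It was above 0 and called for 5 of the 6 genes, in a test that called 22.7% of tested genes, with 12% of all tested genes above 0. The decrease with Vem was smaller with RSV by 2.66 on the log2 scale for DUSP6 (standard error 0.316, adjusted p = 2.92e-05), by 1.79 for ETV1 (standard error 0.191, adjusted p = 1.18e-05), by 1.43 for ETV5 (standard error 0.144, adjusted p = 8.30e-06), by 1.43 for ETV4 (standard error 0.311, adjusted p = 0.00373) and by 0.87 for DUSP4 (standard error 0.160, adjusted p = 0.00115). For ETV4 the difference was made up of a value 0.66 higher in RSV+Vem than in Vem, which was not called, and a value of -0.77 in RSV against vehicle, which was. For DUSP5 no difference was called, with an interaction of -0.25 (95% interval -1.09 to 0.60, adjusted p = 0.698).

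A smaller decrease in the presence of RSV was common among genes that Vem lowered. Of 168 genes that were called lower with Vem by at least 3 on the log2 scale, to which the same 5 genes belong, 65 (38.7%) had an interaction called above 0 and 1 below 0; of 1699 called lower by at least 1, 961 (56.6%) had one above 0. These genes were picked on libraries that also enter the interaction, so the shares only describe the background. The ERK output transcripts had 9 of 13 called above 0, with a median of 0.87, among them SPRY4 (3.39) and SPRY2 (2.28), while EGR1 gave -0.13 (adjusted p = 0.909) and turned to 0.024 with the spike-ins, which called 1 of the 13. DUSP1 had 1.62 (adjusted p = 0.00279), the sole call among the 6 other phosphatases tested, and missed the threshold with the spike-ins (1.80, adjusted p = 0.507). The RSV+Vem libraries had the lowest RNA integrity, whose part in the result was not tested, and RSV+Vem 2 had the lowest depth. With RSV+Vem 2 or any other single library left out, the values of the 5 genes stayed above 0. They ran from 2.16 to 3.54 for DUSP6, 1.65 to 1.97 for ETV1 and 1.26 to 1.64 for ETV5. Those of ETV4 ran from 1.30 to 1.59 and those of DUSP4 from 0.73 to 1.00. Under spike-in scaling 6 of all genes and 0 of the 6 described here passed the threshold, with values between 0.87 and 2.82 in the 5 genes under both scalings. The control sequences held 0.0389% and 0.0903% of the counts in the RSV+Vem replicates, and the part of this in the lost calls was not tested.

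**Figure D4:**
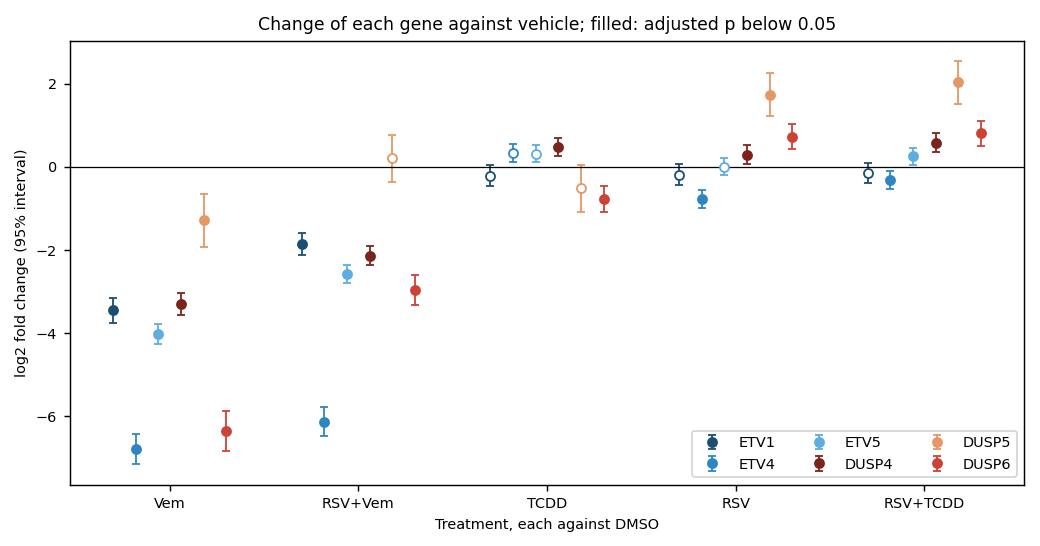
log2 fold change of the 6 genes against DMSO in the 5 other groups, with 95% intervals; filled points were called at an adjusted p below 0.05 under TMM scaling. Vem and RSV+Vem lie far below 0 except for DUSP5, and the points of the other groups lie within 1 of 0 apart from DUSP5 with RSV and RSV+TCDD; under spike-in scaling the TCDD values of ETV4, ETV5 and DUSP4, the RSV value of ETV5, the RSV+Vem value of DUSP5 and the RSV+TCDD values of ETV5, DUSP4 and DUSP6 turn negative.

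TCDD was compared with vehicle to see what a classical AhR agonist does to the same genes. Changes were small, in a comparison that called 6.41% of tested genes (4.5% higher and 1.9% lower), and 2 of the 6 genes were called. DUSP6 was lower, at 57.0 and 65.6 CPM against 111 and 98.5 (log2 fold change -0.77, standard error 0.144, adjusted p = 0.00400). DUSP4 was higher, at 281 and 292 CPM against 227 and 185 (0.48, standard error 0.105, adjusted p = 0.0118), but turned to -0.033 under spike-in scaling. The change of DUSP6 thus lay below that of DUSP4 under TMM scaling. With the spike-ins the values were -1.29 and -0.033. This scaling shifts the genes of a comparison nearly alike, so it could not turn their order. Neither gene was called there, where 2 of all tested genes were called higher and 8 lower. The DUSP6 call was lost without TCDD 1 (-0.67, adjusted p = 0.0889), and the DUSP4 call without DMSO 2, TCDD 1 or TCDD 2 (0.33 to 0.51, adjusted p = 0.0746 to 0.112).

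Of the PEA3 factors, ETV4 and ETV5 were near the threshold with TCDD, and ETV1 was not. ETV4 was at 138 and 149.8 CPM (0.34, 95% interval 0.12 to 0.55, adjusted p = 0.0606) and ETV5 at 495 and 508 CPM (0.32, 0.12 to 0.52, adjusted p = 0.0565), values that turned to -0.17 and -0.19 under spike-in scaling. Leaving out RSV 1 or RSV 2 brought ETV4 past the threshold (adjusted p = 0.0327 and 0.0322), and leaving out either Vem library did so for ETV5 (0.0308 and 0.0309), as did DESeq2 (adjusted p = 0.0213) and a model of only the 4 libraries compared (adjusted p = 0.0363). ETV1 differed by -0.21 (95% interval -0.46 to 0.037, adjusted p = 0.312). DUSP5, at 7.18 and 8.38 CPM, differed by -0.52 (-1.09 to 0.052, adjusted p = 0.279), and its TCDD libraries overlapped those of vehicle.

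Both ligands were also set against each other, where 50.7% of tested genes were called (26.5% lower). With Vem, ETV4 (-7.13), DUSP6 (-5.58), ETV5 (-4.33), DUSP4 (-3.78) and ETV1 (-3.24) were lower than with TCDD, the largest adjusted p among them being 6.36e-11. DUSP5 was lower by -0.77 (95% interval -1.44 to -0.095) and was not called (adjusted p = 0.0540). It passed with the replicate number as a block (adjusted p = 0.0233), with no filter on low counts (adjusted p = 0.000702), with only the 4 libraries compared (adjusted p = 0.000213, in a model whose quasi-likelihood spread was taken from all genes with no weight on the single gene), and without DMSO 1, DMSO 2, RSV 1, RSV 2 or RSV+Vem 1 (adjusted p from 0.0164 to just under the threshold).

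RSV+TCDD was compared with vehicle, TCDD and RSV in turn, to see whether RSV altered the response to the agonist. Against vehicle, where 43.8% of tested genes were called (22.3% higher and 21.6% lower), DUSP5 (2.03, standard error 0.243), DUSP6 (0.80, standard error 0.140), DUSP4 (0.58, standard error 0.105) and ETV5 (0.25, standard error 0.0949) were higher and ETV4 was lower (-0.32, standard error 0.103), while under spike-in scaling 0 were called higher and 3 lower and the DUSP6, DUSP4 and ETV5 values turned to -0.40, -0.62 and -0.93. DUSP5 was at 47.8 and 42.6 CPM, its highest group. The calls of ETV4 and ETV5 were lost without any of DMSO 1, RSV+TCDD 1 or RSV+TCDD 2 (adjusted p from 0.0652 to 0.129), and that of ETV5 also without DMSO 2, TCDD 1 or TCDD 2. ETV1 differed by -0.15 (adjusted p = 0.317).

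Against TCDD, where 37.7% of tested genes were called (18.6% higher and 19.1% lower), adding RSV raised DUSP5 (2.55, standard error 0.258, adjusted p = 2.62e-06) and DUSP6 (1.58, standard error 0.145, adjusted p = 1.02e-06) and lowered ETV4 (-0.66, standard error 0.103, adjusted p = 0.000151). DUSP6 was at 173 and 192 CPM in RSV+TCDD, against 57.0 and 65.6 CPM in TCDD. The same genes had moved in the same direction with RSV alone, in comparisons that share no library with these. Of the others, DUSP4 differed by 0.10, ETV1 by 0.062 and ETV5 by -0.063, and the first pair turned to -0.58 and -0.65 under spike-in scaling. That scaling, which called 162 of all genes higher and 1644 lower, still called DUSP5 higher and ETV4 lower (1.88 and -1.34), while the DUSP6 call was lost (0.88, adjusted p = 0.135).

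Against RSV, where 5.7% of tested genes were called (3.61% higher), ETV4 alone was higher, at 91.4 and 91.0 CPM against 73.4 and 60.1 (0.45, standard error 0.104, adjusted p = 0.0189). The call was lost without RSV 2, RSV+TCDD 1 or RSV+TCDD 2 (0.32 to 0.46, adjusted p = 0.0775 to 0.181) and when the model held only the 4 libraries compared (adjusted p = 0.0979), and the value turned to -0.59 under spike-in scaling. The other 5 lay between 0.042 for ETV1 and 0.30 for DUSP5, and all of these turned negative with the spike-ins. The interaction of RSV and TCDD was called for 0 of the 6 genes and for 0.124% of tested genes by edgeR. At an unadjusted p under 0.05 there were 1294 of the 16080 tested genes, DUSP6 (0.85, adjusted p = 0.130) and DUSP5 (0.82, adjusted p = 0.584) among them. DESeq2, which called 17 of 14813 genes above 0 and 44 below, called DUSP6 alone of the 6 (adjusted p = 0.00554). Without DMSO 2 the DUSP6 value in edgeR was 0.94. With no filter on low counts, edgeR called DUSP6 (0.89, adjusted p = 1.93e-05) and DUSP5 (0.85, adjusted p = 0.0209) above 0. That setting called 132 of 31085 genes above 0 and 100 below.

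Across the 6 groups each gene had its own order of levels. ETV1 ran from vehicle (84.5 ± 5.50 CPM) through RSV+TCDD (76.2 ± 9.09), RSV (74.0 ± 6.63) and TCDD (72.9 ± 5.78), whose libraries overlapped each other in turn, to RSV+Vem (23.4 ± 0.412) and Vem (7.70 ± 1.21). ETV4 separated more groups, with TCDD highest (143.7 ± 8.62), then vehicle (113.7 ± 1.74), RSV+TCDD (91.2 ± 0.251), RSV (66.8 ± 9.43), RSV+Vem (1.61 ± 0.0531) and Vem (1.02 ± 0.135), and no neighbours overlapped, though its first and last steps were not called. For ETV5 the groups were TCDD (502 ± 8.82), RSV+TCDD (480.2 ± 5.13), RSV (403 ± 9.63), vehicle (402 ± 12.6), RSV+Vem (67.1 ± 1.22) and Vem (24.8 ± 4.65), of which RSV and vehicle overlapped. The step from TCDD to RSV+TCDD and that from RSV+TCDD to RSV were not called for ETV5. The 3 factors shared their lowest and next lowest group.

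Among the phosphatases, DUSP4 was highest in RSV+TCDD (308 ± 6.75), followed by TCDD (287 ± 8.37), RSV (252 ± 22.2), vehicle (206 ± 29.3), RSV+Vem (46.7 ± 4.91) and Vem (20.9 ± 0.228), with the step from RSV+TCDD to TCDD not called and the gap between RSV and vehicle smaller than their summed SD. DUSP6 had RSV+TCDD (182 ± 12.9) and RSV (173 ± 25.2) overlapping at the top, then vehicle (105 ± 8.63), TCDD (61.3 ± 6.10), RSV+Vem (13.2 ± 1.80) and Vem (1.25 ± 0.789). DUSP5 had RSV+TCDD (45.2 ± 3.71) and RSV (36.9 ± 14.7) overlapping at the top, RSV+Vem (12.4 ± 2.49), vehicle (11.2 ± 4.11) and TCDD (7.78 ± 0.852) overlapping in turn, and Vem (4.54 ± 0.320) last. DUSP4 alone of these 3 had a higher mean with TCDD than with vehicle, an order that turned under spike-in scaling.

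The unequal decreases changed the make-up of both sets. ETV4 held 29.2% ± 0.407 of the summed PEA3 level per kilobase with vehicle and 5.39% ± 0.260 with Vem, and ETV5 held 62.9% ± 0.122 and 79.7% ± 0.602, while the sum itself was 111 ± 3.24 and 5.39 ± 0.970 CPM per kb. With RSV+Vem the sum was 14.5 ± 0.240 CPM per kb, and ETV4 held 3.16% ± 0.156 of it. DUSP6 held 45.5% ± 2.25 of the sum of DUSP4, DUSP5 and DUSP6 per kilobase with vehicle, 6.45% ± 3.96 with Vem and 23.2% ± 0.173 with RSV+Vem. DUSP5, a minor member with vehicle at 7.25% ± 1.76, made up 35.9% ± 3.32 with Vem and 33.2% ± 1.89 with RSV+Vem. With TCDD the set leaned toward DUSP4, at 67.6% ± 1.58 against 47.3% ± 0.495 with vehicle. These shares are ratios within a library, do not depend on how libraries are scaled and were not tested.

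**Figure D5:**
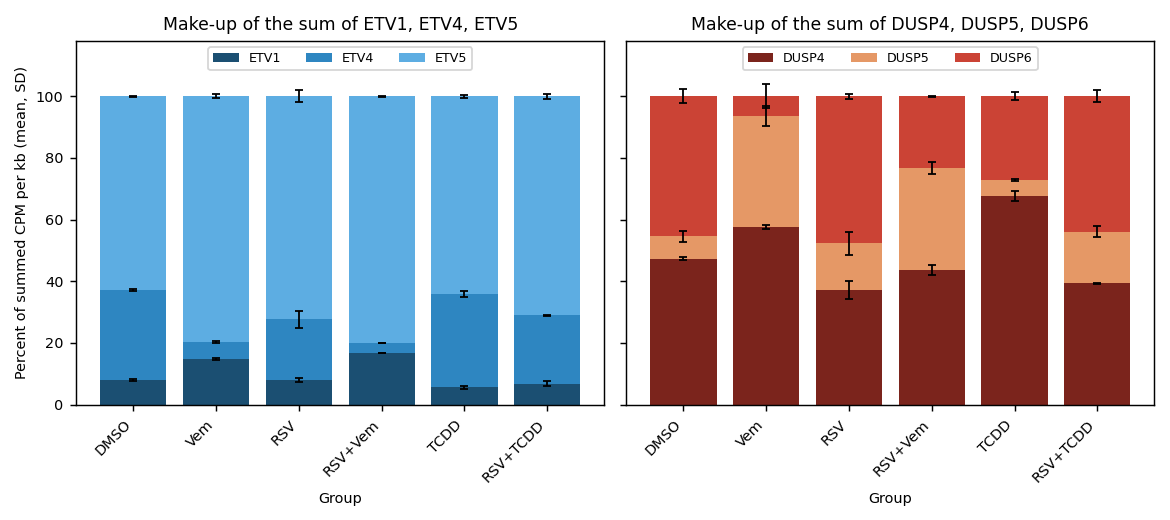
Percent of the summed CPM per kb held by each gene, for ETV1, ETV4 and ETV5 on the left and DUSP4, DUSP5 and DUSP6 on the right, by group; bars are means of 2 libraries and error bars their SD. ETV4 is at 5.39% with Vem and 3.16% with RSV+Vem, and DUSP6 is at 6.45% with Vem and 23.2% with RSV+Vem.

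Over the 12 libraries, which include 2 groups with Vem that set most of the range, the log2 levels of ETV1, ETV4, ETV5, DUSP4 and DUSP6 correlated with each other at a Pearson r of 0.89 to 0.99. DUSP5 stood apart, with an r of 0.48 to 0.76 to the other 5. Among 12671 further genes, those most like ETV1 were PXK, RFC4 and SMAD7, an inhibitor of TGF-β signalling (r = 0.99 each). Those most like ETV4 were SDC3, IL6R, the interleukin-6 receptor, and LRP4 (r = 0.99), and those most like ETV5 were INPP5F, CACHD1 and CIT (r = 0.99). For DUSP4 they were IER3, itself an ERK output transcript (r = 0.996), CTLA4 and CYTH3 (r = 0.99), and for DUSP6 NES, which encodes the intermediate filament nestin (r = 0.99), FREM2 and MME (r = 0.98). DUSP5 resembled a different set, TNFRSF12A, PLEKHO1 (r = 0.99) and DAB2IP (r = 0.98). With Spearman's rho as the measure, DAB2IP stayed among the 3 genes most like DUSP5, and none of the other 5 genes kept any of its 3.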

How the data were processed

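Poly(A) RNA of 501Mel cells was sequenced as stranded read pairs. The authors aligned the pairs with STAR 2.4.0a to hg19, used featureCounts of Subread 1.5.0-p3 to assign them to gene symbols, and deposited raw counts without normalization. The annotation release counted is not given in the sources used here, so positions come from GENCODE on GRCh37. The strand option named for the counting is the forward one, while the kit's first read is antisense; MT-ND6, the mitochondrial protein gene on the light strand, held 0.153% to 0.440% of mitochondrial protein gene counts. PCR copies remain in the counts, so counting error is a lower limit.

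The 96 control sequences, 92 of them ERCC spike-ins, were left out of the tests. In edgeR 4.0.16 (R 4.3.3), genes were filtered with filterByExpr by group, TMM factors (0.890 to 1.08) were applied, and a model with 1 term per group was fitted to all 12 libraries, so that the spread was shared. Quasi-likelihood F tests were adjusted by Benjamini-Hochberg over 16080 genes. The common biological coefficient of variation was 0.0915, and replicates differed by more than counting noise (chi-square per degree of freedom 4.47 to 21.3). An exact permutation test of 2 against 2 libraries cannot go below p = 0.333. Standard errors are the log2 fold change divided by the root of F. The steps were tested on simulated data.

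The genes and the gene lists were chosen with earlier results of these data known. The text names the 6 genes, up to 4 called genes per list with the largest change with Vem, and the 3 genes most like each of the 6 by Pearson's r of log2 CPM (prior count 2) among genes whose highest group averaged 50 counts or more. Alternatives were DESeq2 1.42.0 (the study's tool), RLE factors, scaling to the ERCC counts, no filter, a floor of 10 counts per library, the replicate number as a block, a model of the compared libraries alone, leaving out each library in turn, and Spearman's rho. Same-numbered replicates did not deviate together (correlation of their differences above 0.1 in 3 of 15 pairs of groups, below -0.1 in 1), so the main model has no block. Plots were made with matplotlib 3.10.9 (Python 3.11.15).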

Additional observations from a re-analysis of the deposited data

Results flagged for a closer look

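In 5 of the 6 genes the change with Vem differed between cells with and without RSV, by the test of the difference itself in edgeR's model. The difference was 2.66 on the log2 scale for DUSP6, 1.79 for ETV1, 1.43 for ETV4, 1.43 for ETV5 and 0.87 for DUSP4, all toward a smaller decrease with RSV. Under spike-in scaling these differences stayed above 0 and 0 of the 5 passed the threshold (adjusted p from 0.0514 to 0.99996). No group held enough libraries for a check of single libraries that stand apart.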

How the results depend on the processing

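The log2 fold changes of 6 genes in 12 comparisons and contrasts gave 72 values, of which 47 were called, and 1356 values under the alternatives. Of these, 1257 kept their direction and their side of the threshold, 38 lost the call, 21 gained it and 40 changed direction. With the spike-ins 18 values changed direction: with TCDD ETV4 to -0.17, ETV5 to -0.19 and DUSP4 to -0.033; with RSV ETV5 to -0.17; with RSV+Vem DUSP5 to -0.45; with RSV+TCDD against vehicle ETV5 to -0.93, DUSP4 to -0.62 and DUSP6 to -0.40; against TCDD ETV1 to -0.65 and DUSP4 to -0.58; against RSV ETV1 to -0.996, ETV4 to -0.59, ETV5 to -0.76, DUSP4 to -0.75, DUSP5 to -0.75 and DUSP6 to -0.97; and in the interaction of RSV and TCDD ETV1 to -0.28 and ETV4 to -0.41. This scaling, which rests on under 0.1% of the counts, shifts the genes of a comparison nearly alike. The median of all genes went to -0.68 with Vem, -0.51 with TCDD, -0.17 with RSV, -0.70 with RSV+Vem and -1.20 with RSV+TCDD, each against vehicle. Calls over all tested genes were 2 higher and 8 lower with TCDD and 195 higher and 9933 lower with RSV+TCDD, each against vehicle. The spike-in scaling called 0 of the 6 genes with TCDD in place of 2, 1 with RSV in place of 4, 3 with RSV+TCDD against vehicle in place of 5, 2 in RSV+Vem against Vem in place of 5, 2 in RSV+TCDD against TCDD in place of 3, 0 in RSV+TCDD against RSV in place of 1 and 0 in the interaction of RSV and Vem in place of 5. The share of control sequences also differed between replicates, at 0.0389% and 0.0903% in RSV+Vem and at 0.0630% and 0.0936% in RSV+TCDD. Its part in the lost calls was not tested. Without a filter ETV5 with RSV went to -0.0098, 4 genes were called with TCDD and 2 in the interaction of RSV and TCDD, where DESeq2 called 1. With at least 10 counts in every library DUSP6 dropped out and 1 gene was called with TCDD. With only the libraries compared, 0 were called in RSV+TCDD against RSV, DUSP4 with RSV lost its call (adjusted p = 0.0902), and ETV5 with TCDD (adjusted p = 0.0363) and DUSP5 in Vem against TCDD (adjusted p = 0.000213) gained one.

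Leaving out 1 library, where the lone sample of a group is assumed to vary like the other groups, gave 0 to 3 genes with TCDD, 3 to 5 with RSV+TCDD against vehicle, 0 to 1 in RSV+TCDD against RSV and 0 to 1 in the interaction of RSV and TCDD. Values that crossed 0 in this way were DUSP5 in the interaction of RSV and Vem (-0.66 to 0.23), in RSV+TCDD against RSV (-0.061 to 0.78) and in RSV+Vem against vehicle (-0.14 to 0.62), DUSP6 in RSV+TCDD against RSV (-0.059 to 0.24), ETV1 in RSV+TCDD against RSV (-0.079 to 0.16) and against TCDD (-0.063 to 0.18), ETV4 in the interaction of RSV and TCDD (-0.022 to 0.27) and ETV5 with RSV (-0.028 to 0.028). The replicate block called 6 genes with Vem, 2 with TCDD and 5 in the interaction of RSV and Vem, and changed 1 call, DUSP5 in Vem against TCDD (-0.76, adjusted p = 0.0233). The cause of these changes was not tested. ETV4 and DUSP6 rested on at most 26 counts per library with Vem, which limits the precision of their values there.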
